A study of Mus musculus with 4 samples.

Results

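Dendritic cells (DCs) of the mouse liver were described here by 10 transcription factor genes that specify their lineages: Irf8, Batf3, Id2, Irf4, Klf4, Zbtb46, Zeb2, Tcf4, Spib and Runx2. The genes were chosen by name, as known regulators of DC fate, and all 10 were found among the 32285 genes of the RNA tables. Peaks of accessible chromatin within 50 kb of their start sites numbered 238 of the 127216 peaks that were shared by both libraries. For genes with several starts the window ran from 50 kb before the first start to 50 kb after the last. All mice were C57BL/6J and, per the study's methods, male and 6 to 12 weeks old. Liver cells were sorted as living Cd45+ Cd64- Cd11c+ cells, and RNA and open chromatin were then read from the same nuclei (10x Multiome). The D0 group received no 3,5-diethoxycarbonyl-1,4-dihydrocollidine (DDC), and the D5 group was fed chow with 0.1% DDC, a compound that causes inflammation of the bile ducts, for 5 days. The 4 samples are the RNA and the chromatin layer of 1 library per day. The difference between the days therefore cannot be told apart from a difference between libraries, no test of it was possible, and every interval given covers counting error only. How many mice each library held is not given in the sources used here.

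Conventional DCs fall into a type 1 that cross-presents antigen (cDC1) and a type 2 that primes helper T cells (cDC2), and plasmacytoid DCs (pDCs) release type I interferon. Irf8, Batf3 and Id2 are needed for cDC1, Irf4, Klf4 and Zeb2 act in cDC2, and Zbtb46 is expressed in the conventional lineages and not in pDCs. Tcf4, also called E2-2, sets the pDC fate together with Spib and Runx2, while Id2 blocks Tcf4 and other E proteins by binding them. In the liver, cDC2 gather around the portal tracts, where bile ducts lie.

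Across both libraries, 10982 nuclei at D0 and 19832 at D5 were kept, with medians of 1732 and 2556 UMIs (unique RNA molecules counted). Nuclei were clustered on RNA without the 10 genes, and clusters were named from marker lists that also left them out. Compared were cDC1-like nuclei (1554 at D0, 2753 at D5), cDC2-like nuclei (2416, 8723), preDC-like nuclei with markers of circulating DC precursors (212, 1397), pDC-like nuclei (2353, 2060), mature Ccr7+ DC-like nuclei (304, 997), macrophage-like (719, 1090), nonclassical monocyte-like (109, 191) and NK cell-like nuclei (1549, 1142). The marker sums followed the names: the cDC1 list summed to 5931 counts per 1000000 (CPM) in cDC1-like and 1157 in cDC2-like nuclei at D0, the pDC list to 5507 in pDC-like and 529 in cDC2-like nuclei, and the Ccr7+ list to 11919 in Ccr7+ DC-like nuclei. The label of the preDC-like nuclei was the weakest, since their own list reached 1790 CPM at D0 against 2490 in pDC-like nuclei, which share Siglech and other genes of it, and 1600 in NK cell-like nuclei. The classical monocyte list was higher in preDC-like nuclei than in the other 7 classes, at 1933 and 1696 CPM, against 771 and 1004 in cDC2-like nuclei. Despite the gate on Cd64- cells and Cd11c, macrophage-like and NK cell-like nuclei were present. The libraries shared 591 cell barcodes. Unnamed were 16.0% of nuclei at D0 and 7.0% at D5. Barcodes with only 10 to 100 UMIs were used as a gauge of free RNA, and the level of all 10 genes in them was lower at D5 than at D0, from 725 to 358 CPM for Irf8 and from 1074 to 805 for Id2.

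The RNA values below were counted per gene and were not assigned to a start site. Sequences at start sites follow, and Irf8 and Zeb2 have further RefSeq starts that are not printed. The 300 bases from 250 before to 50 after the start are given for 5 genes of different lineages, Irf8 and Batf3 of cDC1, Irf4 and Zeb2 of cDC2 and Spib of pDCs, from RefSeq on GRCm38.p6, the same coordinates as the mm10 build of the files. Capitals mark matches, on either strand, of an AP-1 site (TGANTCA, the sequence that Batf3 with Jun binds), an E-box (CANNTG, bound by E proteins such as Tcf4), the core of an interferon-stimulated response element (GAAA, any 2 bases and GAAA again, bound by Irf8 and Irf4 with partners) or a PU-box core (GAGGAA, bound by Spib and Spi1).
Irf8 (chr8:120736108-120736407, plus strand): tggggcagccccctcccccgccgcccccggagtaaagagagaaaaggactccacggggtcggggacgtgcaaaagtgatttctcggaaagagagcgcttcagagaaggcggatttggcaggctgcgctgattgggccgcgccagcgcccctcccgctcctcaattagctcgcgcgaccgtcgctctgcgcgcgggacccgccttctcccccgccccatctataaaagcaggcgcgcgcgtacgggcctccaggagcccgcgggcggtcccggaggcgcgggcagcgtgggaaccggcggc
Batf3 (chr1:191098164-191098463, plus strand): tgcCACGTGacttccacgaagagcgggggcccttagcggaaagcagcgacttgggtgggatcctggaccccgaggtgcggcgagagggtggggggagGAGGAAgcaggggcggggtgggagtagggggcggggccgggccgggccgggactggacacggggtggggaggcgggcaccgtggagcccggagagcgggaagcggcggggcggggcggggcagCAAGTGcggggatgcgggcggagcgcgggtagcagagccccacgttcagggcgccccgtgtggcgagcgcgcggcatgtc
Irf4 (chr13:30748983-30749282, plus strand): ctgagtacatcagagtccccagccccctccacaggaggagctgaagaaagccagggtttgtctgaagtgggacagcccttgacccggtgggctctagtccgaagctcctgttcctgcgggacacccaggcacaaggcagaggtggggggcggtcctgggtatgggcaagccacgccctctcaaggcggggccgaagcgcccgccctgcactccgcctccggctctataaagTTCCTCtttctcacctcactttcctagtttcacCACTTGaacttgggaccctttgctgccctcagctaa
Zeb2 (chr2:45110228-45110527, minus strand): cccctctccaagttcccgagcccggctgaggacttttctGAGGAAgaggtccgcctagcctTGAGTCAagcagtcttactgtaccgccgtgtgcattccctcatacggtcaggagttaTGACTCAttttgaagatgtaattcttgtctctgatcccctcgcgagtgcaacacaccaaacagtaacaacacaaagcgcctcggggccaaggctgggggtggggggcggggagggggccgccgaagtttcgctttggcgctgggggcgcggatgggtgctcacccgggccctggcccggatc
Spib (chr7:44532022-44532321, minus strand): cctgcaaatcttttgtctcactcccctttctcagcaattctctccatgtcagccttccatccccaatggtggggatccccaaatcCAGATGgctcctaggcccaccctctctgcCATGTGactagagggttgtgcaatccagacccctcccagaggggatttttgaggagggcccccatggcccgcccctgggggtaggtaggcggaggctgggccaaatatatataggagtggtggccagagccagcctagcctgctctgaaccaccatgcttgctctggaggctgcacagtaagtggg

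Of 32544 promoters of this length, 7.79% hold the AP-1 letters, 72.3% an E-box, 3.45% the interferon element core and 28.1% the PU-box core. The Irf8 window printed held none of these motifs, that of Irf4 held 1 E-box and 1 PU-box core, that of Batf3 held 2 E-boxes and 1 PU-box core, and that of Spib held 2 E-boxes. The Zeb2 window printed, the one of its 4 RefSeq starts with AP-1 letters, held 2 AP-1 matches and 1 PU-box core. A match is a description of letters, not of binding. The RefSeq window matched for Runx2 on chromosome 17 held 3 matches of TGTGGT, the letters bound by Runx proteins, which 16.7% of all promoters hold. The starts of Runx2 run from 44735634 to 44814797, and this window (44814578 to 44814877) lies at the upper end. RefSeq windows were matched for 9 of the 10 genes, and none for Tcf4.

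The start-site windows differed little in openness for some genes and widely for others. Accessibility is given as CPM of all fragments that a class had in shared peaks, with both days summed here. The Spib start (chr7:44532022-44532321, minus strand) lay in a peak that reached 26.7 CPM in pDC-like, 15.8 in Ccr7+ DC-like, 12.4 in preDC-like and 9.4 in cDC2-like nuclei, but 1.7 in cDC1-like nuclei, a 15.4-fold range. The Irf8 start was open in every class, with a range of 1.51-fold. The Id2 start was most open in cDC1-like nuclei at 72.2 CPM and least in pDC-like nuclei at 39.2 CPM. The Irf4 start was most open in cDC2-like and preDC-like nuclei, at 33.7 and 33.5 CPM, and least in NK cell-like nuclei at 13.3 CPM. The Batf3 start held 20.6 CPM in macrophage-like, 19.8 in cDC1-like and 7.06 in NK cell-like nuclei. The Runx2 start matched above was little open in every class, at most 2.41 CPM, in Ccr7+ DC-like nuclei, with 2.36 in pDC-like nuclei.

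Irf8 and Batf3, partners in cDC1 specification, and Id2 each had a distinct order over the classes. Irf8, the factor that cDC1 cannot develop without, was highest in pDC-like nuclei at 1933 CPM at D0 and 1780 at D5, followed by cDC1-like nuclei at 1416 and 1357 CPM, so that its top class exceeded the next by 1.37-fold and 1.31-fold. preDC-like nuclei held 973 CPM at D0 and 281 at D5, and Ccr7+ DC-like nuclei 650 and 276. cDC2-like nuclei were at the bottom with 175 CPM (95% Poisson interval 163 to 188) and 96.2 (92.4 to 100.1), and macrophage-like, nonclassical monocyte-like and NK cell-like nuclei lay between 183 and 370 CPM. The cDC2-like level stood below that of the barcodes with few UMIs on both days, as did that of Ccr7+ DC-like nuclei.

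Batf3 was highest in Ccr7+ DC-like nuclei at D0, with 266 CPM (228 to 308) against 159 (146 to 173) in cDC1-like nuclei, and highest in cDC1-like nuclei at D5, with 193 (184 to 202) against 139 (125 to 154). At D0 the intervals of cDC1-like and macrophage-like nuclei (138 CPM) overlapped. pDC-like and preDC-like nuclei were among the lowest at 23.9 to 33.2 CPM, under the 150 and 106 CPM of barcodes with few UMIs. Id2, the inhibitor of E proteins, moved the same way in the order: Ccr7+ DC-like nuclei led at D0 with 1738 CPM, followed by cDC1-like nuclei with 1324, and cDC1-like nuclei led at D5 with 2061 against 1493. NK cell-like nuclei, a lineage that also needs Id2, held 1237 and 1390 CPM. pDC-like nuclei (213 and 307 CPM) and preDC-like nuclei (227 and 285 CPM) were lowest, below the 1074 and 805 CPM of barcodes with few UMIs.

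Among the cDC2 factors, Irf4 was highest in preDC-like and cDC2-like nuclei. It reached 198 CPM (156 to 248) at D0 and 161 (149 to 175) at D5 in preDC-like nuclei, followed by cDC2-like nuclei with 130 (119 to 140) and 80.8 CPM, then pDC-like nuclei with 92.3 and 73.1. cDC1-like nuclei held 15.5 and 10.7 CPM, the lowest level at D5, which preDC-like nuclei exceeded by 15.1-fold. The lowest class at D0 was nonclassical monocyte-like nuclei with 1 UMI in all, 6.8 CPM (0.17 to 38.1). Klf4, a Krueppel-like factor of monocytes and of a cDC2 subset, was highest in nonclassical monocyte-like nuclei at 759 CPM (625 to 914) and 503 (428 to 588), followed by preDC-like nuclei at 592 and 336. At D0 the intervals of these 2 classes overlapped. cDC2-like nuclei held 401 and 248 CPM and cDC1-like nuclei 351 and 183.

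Zeb2, a zinc finger repressor that acts in monocytes, cDC2 and pDCs, was high in classes of several lineages and lowest in cDC1-like nuclei. It reached 1847 and 1430 CPM in nonclassical monocyte-like, 1749 and 1146 in macrophage-like, 1304 and 1276 in pDC-like and 1341 and 929 in preDC-like nuclei. cDC2-like nuclei held 771 and 431 CPM, while cDC1-like nuclei held 88.8 and 49.6 CPM, the lowest of the 8 classes on both days, below the 178 and 116 CPM of barcodes with few UMIs. The highest class exceeded cDC1-like nuclei by 20.8-fold at D0 and 28.8-fold at D5.

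Zbtb46 was highest in the conventional classes. It was found at 226 and 212 CPM in Ccr7+ DC-like, 189 and 109 in cDC2-like, 182 and 108 in cDC1-like and 154 and 95.5 in preDC-like nuclei. pDC-like nuclei held 14.6 CPM at D0 and 15 at D5, below the 62.4 and 41.7 CPM of barcodes with few UMIs. NK cell-like nuclei held 43.8 CPM at D0 and 74.4 (63.8 to 86.4) at D5, a log2 ratio of 0.77 (0.40 to 1.13), and at D5 their interval overlapped that of preDC-like nuclei. At D0 the intervals of all neighbours among the conventional classes overlapped, whereas at D5 Ccr7+ DC-like nuclei stood 1.96-fold above the next class.

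The pDC factors were concentrated in pDC-like nuclei. Tcf4 reached 7818 CPM at D0 and 7675 at D5 in pDC-like nuclei and 4785 and 3029 in preDC-like nuclei, and every other class held 180 to 430 CPM, so that the highest exceeded the lowest by 39.5-fold and 42.5-fold. Runx2 followed the same order at the top, with 1688 and 1646 CPM in pDC-like, 981 and 453 in preDC-like and 431 and 366 in nonclassical monocyte-like nuclei, and its highest class exceeded its lowest by 19.1-fold and 29.0-fold. Spib, an ETS-family factor, was found at 215 CPM (201 to 230) at D0 and 133 (122 to 145) at D5 in pDC-like nuclei, and in no other class above 34 CPM. preDC-like nuclei thus shared high Tcf4 and Runx2 with pDC-like nuclei but not high Spib, which stood at 33.9 and 20.1 CPM in them. The plot of RNA by class shows these orders for all 10 genes, 8 of which had the same highest class on both days; Batf3 and Id2 were the exceptions.

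**Figure D1:**
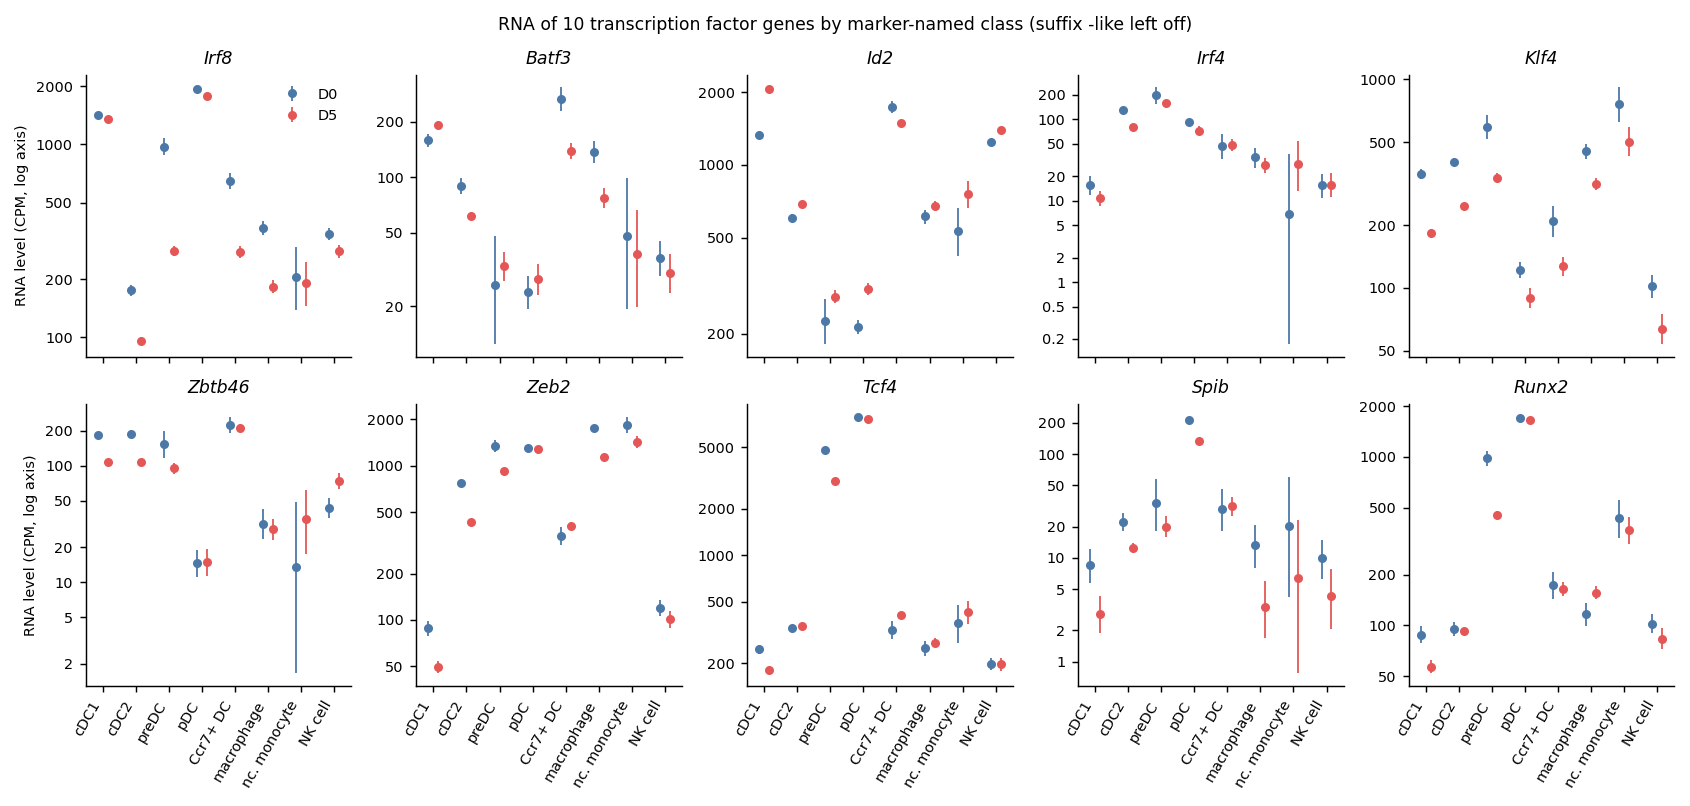
RNA of the 10 genes in 8 classes of nuclei, 1 panel per gene; the vertical axis is CPM of the class on a log scale, points are D0 (blue) and D5 (red), and bars are 95% Poisson intervals. Tcf4, Spib and Runx2 peak in pDC-like nuclei on both days, Zeb2 is lowest in cDC1-like nuclei (88.8 and 49.6 CPM), and Zbtb46 is near 15 CPM in pDC-like nuclei.

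The share of nuclei with at least 1 UMI, after thinning every nucleus to 1000 UMIs, gave the same highest class as the CPM for all 20 pairs of gene and day. Irf8 was detected in 79.4% (exact 95% binomial interval 77.7 to 81) and 78.8% (77 to 80.6) of pDC-like nuclei at D0 and D5 and in 68.2% (65.8 to 70.5) and 71.1% (69.4 to 72.8) of cDC1-like nuclei. In NK cell-like nuclei the shares were 25.3% (23.2 to 27.5) and 22.7% (20.3 to 25.2). Its share in cDC2-like nuclei, 15.1% (13.7 to 16.6) and 8.80% (8.22 to 9.42), was below that of NK cell-like nuclei. preDC-like nuclei stood at 51.9% (44.9 to 58.8) at D0 and 22% (19.9 to 24.3) at D5. In NK cell-like nuclei 263 and 229 CPM were left after the profile of barcodes with few UMIs was subtracted, so that their share is no plain gauge of free RNA; the source of this RNA was not tested. The subtraction left 234 CPM in preDC-like nuclei at D5, and 56.9 CPM at D0 and 0 at D5 in cDC2-like nuclei. It took off 17.7% of the profile of barcodes with few UMIs at D0 and 37.6% at D5. These parts were set from 15 NK and T cell genes in pDC-like nuclei and used for every class. Those genes stood at 3992 CPM in barcodes with few UMIs at D0 and 1199 at D5. In pDC-like nuclei they stood at 706 and 451 CPM, and in NK cell-like nuclei at 5759 and 5524. The profile of barcodes with few UMIs thus differed in its make-up between the days. Levels under it, and ratios after its subtraction, do not rest on the same gauge on both days. At D5 the NK cell list summed to 307 CPM in pDC-like but 208 in cDC2-like nuclei. The part may thus be too large in other classes, and 0 CPM left does not show an absent transcript. Without thinning, the shares in NK cell-like nuclei were 33.6% and 36.5%, in cDC1-like nuclei 87.0% and 95.2%, at class medians of 2069 and 3032 UMIs in cDC1-like nuclei.

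Tcf4 was detected in 99.7% and 99.4% of thinned pDC-like and 91.5% (86.9 to 94.9) and 84.8% (82.8 to 86.6) of preDC-like nuclei, against 14.2% and 12.3% of NK cell-like nuclei. Zeb2 was detected in 5.21% (4.16 to 6.44) and 3.16% (2.54 to 3.88) of cDC1-like nuclei, near or under the 7.62% (6.35 to 9.05) and 5.25% (4.03 to 6.71) of NK cell-like nuclei. With free RNA subtracted, 69.5 and 9.38 CPM of Zeb2 were left in cDC1-like nuclei and 106 and 90.1 in NK cell-like nuclei. Spib was detected in 18.3% (16.8 to 19.9) and 12.3% (10.9 to 13.8) of pDC-like nuclei and 1.1% and 0.613% of NK cell-like nuclei. Irf4 reached 15.6% and 13% in preDC-like and 11.5% and 7.15% in cDC2-like nuclei, with 1.1% and 1.14% in NK cell-like nuclei. Zbtb46 was found in 18.8% and 19.6% of Ccr7+ DC-like and 0.977% and 1.12% of pDC-like nuclei. The members with the lowest shares, such as Spib outside pDC-like nuclei, rest on few UMIs, and at 1000 UMIs per nucleus an absent UMI does not show an absent transcript.

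The Irf8 locus had 30 shared peaks, the best resolved of the 10 loci: 25 of them held at least 100 fragments in their highest class, and 22 of these had the same highest class on both days. Peaks were ranked over 6 classes, without preDC-like and nonclassical monocyte-like nuclei, and a ranking over all 8 classes was added after the data were seen. Of the 25, 14 were most open in pDC-like nuclei, 6 in NK cell-like, 3 in cDC1-like, and 1 each in Ccr7+ DC-like and macrophage-like nuclei. Over all 8 classes 14 of 24 were most open in pDC-like and 0 in preDC-like nuclei. The minimum of 100 fragments is harder to reach in classes with fewer fragments. preDC-like nuclei held 906426.5 and 5104395 fragments at D0 and D5, pDC-like nuclei 10517082 and 7260629.5. Counts of peaks by highest class, here and at the other loci, therefore favour classes with many fragments. Distances are given from the first Irf8 start, chr8:120736358. The most selective peak, at -39.9 kb (chr8:120696176-120696707), held 14.8 CPM in pDC-like nuclei, 4.3 in preDC-like nuclei and 1.3 (cDC2-like) and 0.7 (cDC1-like) in the conventional ones, which put pDC-like nuclei 3.42-fold (2.28 to 5.33) above preDC-like and 11.6-fold (8.47 to 16.3) above cDC2-like nuclei, the next of the 6 classes ranked. The peak with the most fragments covered the start (chr8:120735824-120736747) and held 58.1 CPM in pDC-like, 56.5 in NK cell-like, 53.5 in cDC1-like and 38.5 in cDC2-like nuclei.

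A pair of further Irf8 peaks, singled out after their values were seen, separated cDC1-like from pDC-like nuclei in opposite directions. The peak at +32.4 kb (chr8:120768312-120769215) held 38.0 CPM in cDC1-like nuclei (35.0 at D0, 40.2 at D5), 12.9 in Ccr7+ DC-like, 10.5 in pDC-like, 7.4 in cDC2-like and 3.1 in NK cell-like nuclei. cDC1-like nuclei thus exceeded the next class by 2.94-fold (2.25 to 3.91). The peak at +41.0 kb (chr8:120776915-120777829) held 44.7 CPM in pDC-like nuclei (41.3, 49.7), 23.5 in preDC-like (29.8, 22.4), 13.7 in cDC1-like, 9.3 in cDC2-like and 2.7 in NK cell-like nuclei, an excess of pDC-like nuclei of 1.90-fold (1.59 to 2.29) over preDC-like and 3.26-fold (2.81 to 3.79) over cDC1-like nuclei. NK cell-like nuclei, with 345 and 280 CPM of Irf8 RNA, led at -19.8 kb with 55.0 CPM and at +24.3 kb with 49.9 CPM, 5.23-fold and 7.13-fold above the next class. cDC1-like and pDC-like nuclei, both high in Irf8 RNA, thus differed in their distal peaks, and NK cell-like nuclei had open peaks of their own at a lower RNA level.

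**Figure D2:**
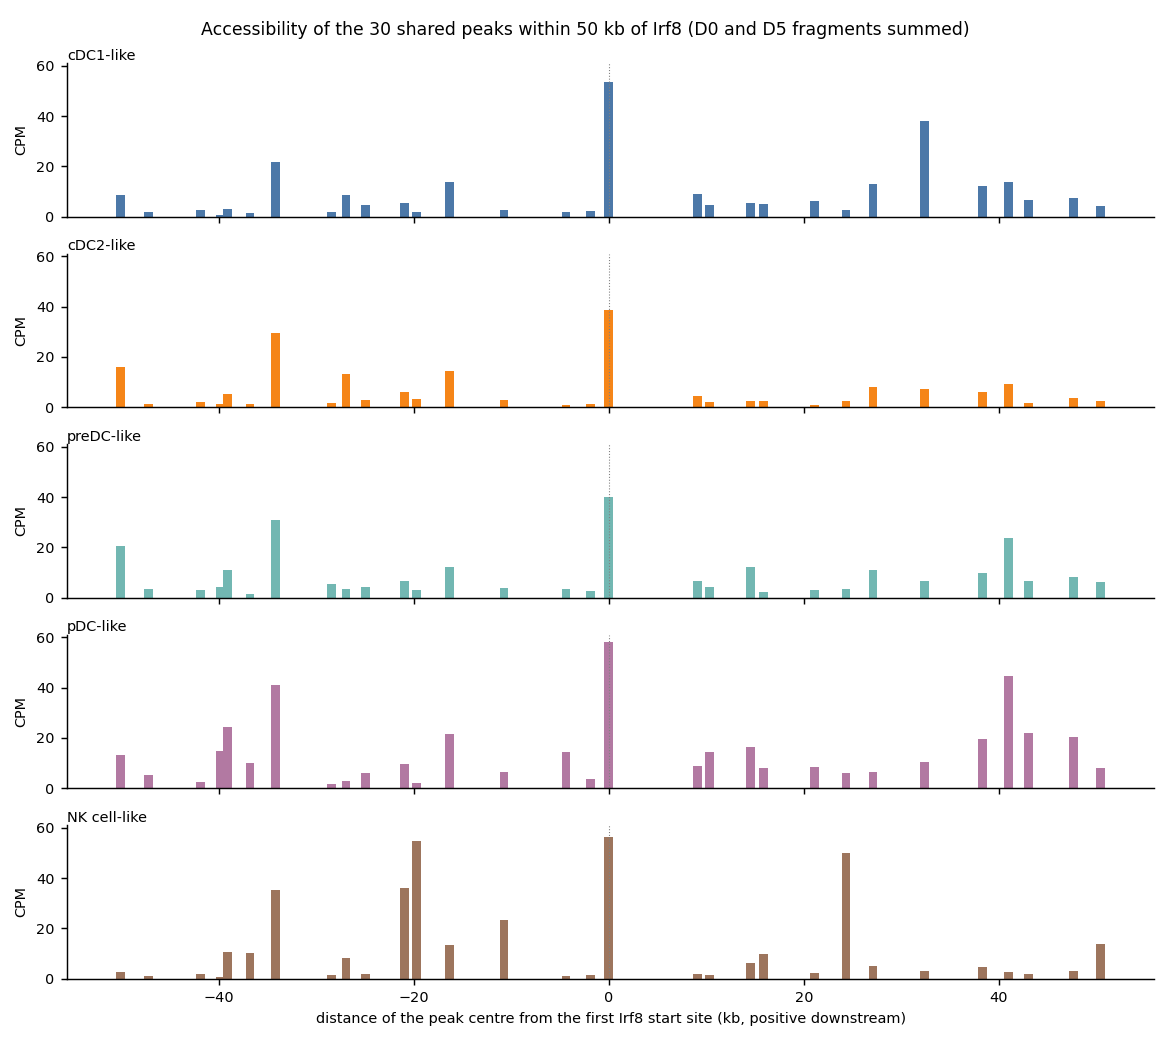
Accessibility of the 30 shared peaks near Irf8 in cDC1-like, cDC2-like, preDC-like, pDC-like and NK cell-like nuclei, with both days summed; the horizontal axis is the distance from the first Irf8 start in kb, and bar height is CPM of the fragments of the class. The +32.4 kb peak is tallest in cDC1-like nuclei (38.0) and the +41.0 kb peak in pDC-like nuclei (44.7), while the start is open in all 5 classes.

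The other loci held fewer selective peaks, given here by the class with the highest and the next level. Near Batf3, 1 peak inside the gene at +2.15 kb (chr1:191100034-191100912) held 17.9 CPM in cDC1-like nuclei (14.3, 20.6) against 7.1 in Ccr7+ DC-like nuclei, 2.52-fold (1.75 to 3.74). The most open peak of the Batf3 window lay at -25.2 kb within Nsl1 and was shared by cDC2-like (52.9 CPM) and Ccr7+ DC-like nuclei (51.6), with 4.8 in NK cell-like nuclei. Near Irf4, the peak inside the gene at +12.1 kb (chr13:30760858-30761791) was most open in pDC-like nuclei at 29.6 CPM (34.1, 23.1), while Ccr7+ DC-like nuclei held 8.0 CPM, cDC2-like nuclei 6.5 and cDC1-like nuclei 3.7. Of the 13 Irf4 peaks with enough fragments, 7 were most open in cDC2-like nuclei, and over all 8 classes 5 of 12 were, with 4 in pDC-like and 2 in preDC-like nuclei.

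The most selective peaks near Zeb2 and Spib were most open in pDC-like nuclei and next most open in preDC-like nuclei. Near Zeb2, a peak at -36.1 kb (chr2:45153033-45153971) held 17.1 CPM in pDC-like and 3.4 in preDC-like nuclei but 0.8 in macrophage-like nuclei, 5.02-fold (3.21 to 8.28) above preDC-like and 21.0-fold (8.91 to 65.2) above macrophage-like nuclei. Macrophage-like nuclei nonetheless held 1749 and 1146 CPM of Zeb2 RNA, against 1304 and 1276 in pDC-like nuclei. Near Spib, a peak at +26.8 kb inside Mybpc2 (chr7:44504819-44505694) held 16.0 CPM in pDC-like, 4.2 in preDC-like and 0.8 in cDC1-like nuclei, 3.85-fold (2.56 to 6.06) above preDC-like and 19.2-fold (11.2 to 35.5) above cDC1-like nuclei. Near Tcf4, a peak 40.4 kb from its first start held 5.7 CPM in pDC-like, 3.8 in preDC-like and 1.3 in cDC2-like nuclei, 4.30-fold (3.02 to 6.19), and 10 of the 15 Tcf4 peaks with enough fragments were most open in pDC-like nuclei. Over all 8 classes the numbers were 7 of 13 in pDC-like and 2 in preDC-like nuclei, and the peak 40.4 kb from the start was 1.42-fold (0.51 to 5.99) above nonclassical monocyte-like nuclei, which held 3.5 fragments of it. The most selective Runx2 peak, at +87.9 kb, held 6.7 CPM in pDC-like, 4.0 in nonclassical monocyte-like and 3.2 in Ccr7+ DC-like nuclei.

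Peaks selective for NK cell-like nuclei lay near genes whose NK level was high and near genes whose level was low. Near Id2, which NK cell-like nuclei expressed, a peak at -20.9 kb (chr12:25117574-25118509) held 12.5 CPM in them, 8.07-fold (5.27 to 12.8) above the next class. Near Klf4, low in NK cell-like nuclei, a peak at -32.1 kb held 11.3 CPM, and in the Zbtb46 window a peak at the start of Lime1 held 41.9 CPM. Several windows reach other genes: 5 peaks of the Zbtb46 window lay at the starts of Abhd16b, Lime1 and Tpd52l2, and 5 of the Spib window at those of Emc10, Gm44646, Napsa, Nr1h2 and Pold1.

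The single class with the most RNA was often not the single most open class, though the 2 measures were related for most genes. The class with the highest RNA was also the class with the highest accessibility within 50 kb for 4 genes at D0 (Irf8, Klf4, Spib and Batf3) and for 3 at D5 (Irf8, Klf4 and Spib). Within 2 kb of the interval from first to last start the number was 4 at D0 and 6 at D5, and within 10 kb 5 and 7. For genes with distant starts even these windows are wide. In or close to the interval of starts lay 35 of the 44 Tcf4 peaks, 13 of 31 for Runx2 and 10 of 26 for Zbtb46. In all 6 genes with different leading classes within 50 kb at D0, and all 7 at D5, the intervals of the 2 most open classes overlapped, and for Tcf4 at D5 preDC-like and pDC-like nuclei held 314.2 and 314.1 CPM. Over the 16 points given by 8 classes on 2 days, which share libraries and depth, Pearson's r between log RNA and log accessibility within 50 kb was 0.94 for Id2, 0.91 for Zeb2, 0.82 for Irf4, 0.79 for Tcf4, 0.73 for Spib, 0.68 for Klf4, 0.65 for Irf8, 0.59 for Batf3 and 0.57 for Zbtb46. Runx2 was the exception at -0.12, and -0.42 within 2 kb. Its accessibility spanned 146 to 199 CPM over the classes at D0, a 1.36-fold range, while its RNA spanned 88.2 to 1688 CPM. At D5 the accessibility range was 1.76-fold. Such ranges were not particular to Runx2, since those of Spib were 1.72-fold at D0 and 1.51-fold at D5. For Zbtb46, leaving out peaks at the starts of other genes, an alternative chosen after seeing the data, placed the highest accessibility in Ccr7+ DC-like nuclei, where its RNA was highest.

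**Figure D3:**
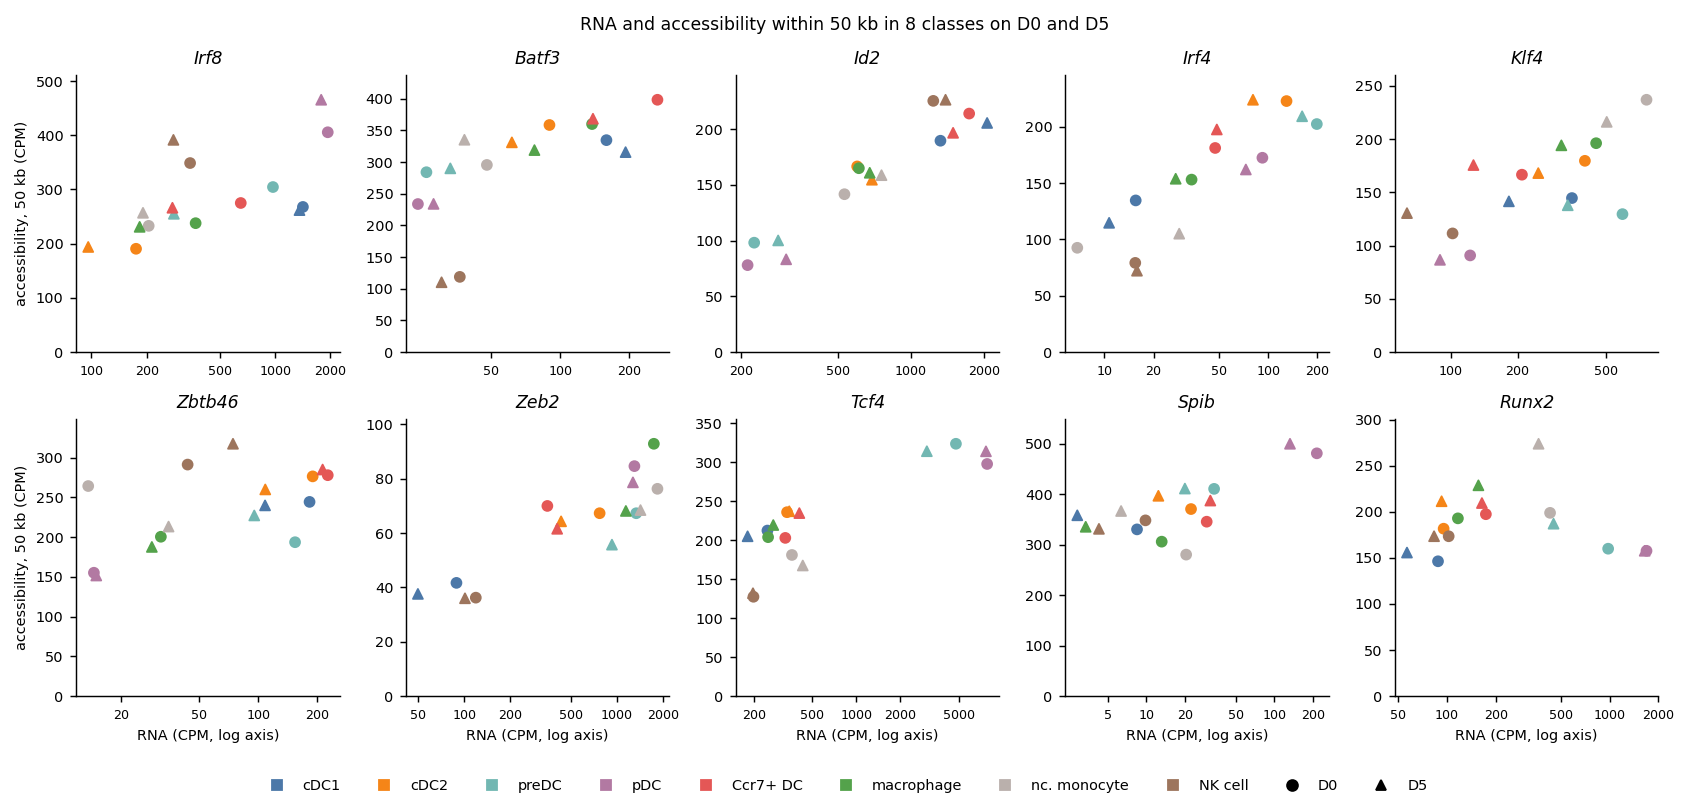
Accessibility within 50 kb (CPM of fragments, vertical, linear scale) against RNA (CPM, horizontal, log scale) for the 10 genes, 1 panel each. Colours are the 8 classes, circles D0 and triangles D5. Id2 and Zeb2 points climb together in both measures (r of 0.94 and 0.91 over 16 points), and the Runx2 panel shows no such slope (-0.12).

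The days were compared within cDC1-like, pDC-like and Ccr7+ DC-like nuclei and in a cDC2 pool of cDC2-like and preDC-like nuclei (2628 at D0, 10120 at D5). Differences are log2 ratios of CPM, D5 over D0, and a gene is counted as past the fold at 1.5-fold either way. In cDC1-like nuclei 1 gene was past it higher and 5 lower at D5, where 4.43% of the 10055 genes with at least 50 UMIs were higher and 18.0% lower. In the cDC2 pool 0 were higher and 5 lower, against 4.9% and 17.0% of 11785 genes. In pDC-like nuclei 0 were higher and 1 lower, against 4.89% and 8.29% of 9502 genes, and in Ccr7+ DC-like nuclei 0 and 3, against 11.1% and 12.7% of 6864 genes. The median of the 10 genes was -0.59 in cDC1-like nuclei, -0.62 in the cDC2 pool, -0.03 in pDC-like and -0.08 in Ccr7+ DC-like nuclei, where the medians of all genes were -0.19, -0.15, -0.10 and -0.04. Without removal of doublets the medians of the 10 genes were -0.13, -0.56, -0.30 and -0.37, so that the contrast of cDC1-like with pDC-like and Ccr7+ DC-like nuclei depends on that step.

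These splits depend on scaling. TMM factors, which assume that most genes do not differ, raise every D5 over D0 ratio by 0.31 in cDC1-like nuclei, 0.29 in the cDC2 pool, 0.15 in pDC-like and 0.14 in Ccr7+ DC-like nuclei. With them the share of all genes past the fold that were higher at D5 was 66.6% in place of 19.8% in cDC1-like nuclei, 63.0% in place of 22.4% in the cDC2 pool, 65.3% in place of 37.1% in pDC-like and 68.0% in place of 46.7% in Ccr7+ DC-like nuclei. Of the 10 genes, 2 were then higher and 2 lower in cDC1-like nuclei, 0 and 1 in the cDC2 pool, 1 and 0 in pDC-like, and 0 and 2 in Ccr7+ DC-like nuclei. Of all genes with enough UMIs, 14.6% were then higher and 7.30% lower in cDC1-like nuclei, and 15.4% and 9.06% in the cDC2 pool. In pDC-like nuclei the shares were 8.44% and 4.48%, and in Ccr7+ DC-like nuclei 16.7% and 7.87%. With the profile of barcodes with few UMIs subtracted instead, 2 were higher and 3 lower of the 8 genes left above 0 on both days in cDC1-like nuclei, 0 and 1 of 9 in the cDC2 pool, 0 and 2 of 8 in pDC-like, and 2 and 3 of 10 in Ccr7+ DC-like nuclei. The shares of all genes past the fold after the subtraction are not given here, so these counts have no background. The same classes differed between the days in the NK cell list, which in classes other than NK cell-like nuclei summed to 389 to 568 CPM at D0 and 185 to 307 at D5; its part in the differences was not tested.

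In cDC1-like nuclei, the cDC1 factors themselves differed little or were higher at D5. Irf8 stood at 1416 and 1357 CPM, a log2 ratio of -0.06 (-0.11 to -0.01) that turned to 0.25 with TMM factors. Batf3 stood at 159 and 193 CPM, 0.28 (0.14 to 0.42), and Id2 at 1324 and 2061 CPM, 0.64 (0.59 to 0.68), the only member past the fold upward. Zbtb46, the factor of both conventional lineages, was lower in the same nuclei at -0.75 (-0.90 to -0.61). Genes of the other lineages were also lower: Klf4 at -0.94 (-1.05 to -0.83), Zeb2 at -0.84 (-1.05 to -0.63), Runx2 at -0.63 (-0.84 to -0.43) and Spib at -1.55 (-2.37 to -0.74). These 5 values stayed below 0 with TMM factors, but only Klf4, at -0.63, and Spib, at -1.24, were then past the fold. The Zeb2 value rested on the removal of doublets and was 0.08 without it. Zeb2, Spib and Runx2 stood below the barcodes with few UMIs on both days, and the subtraction left Spib at 0, Runx2 at 69.8 and 40.6 CPM and Zeb2 at 69.5 and 9.38 CPM.

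In the cDC2 pool, the cDC2 factors Klf4, at -0.68 (-0.75 to -0.61), and Zeb2, at -0.72 (-0.77 to -0.66), and the conventional DC factor Zbtb46, at -0.80 (-0.91 to -0.70), were lower at D5. None of these 3 was past the fold with TMM factors (-0.39, -0.43 and -0.51) or with free RNA subtracted (-0.48, -0.39 and -0.55). Irf4 and Batf3 both stood at -0.56, inside the fold. Batf3 lay under the level in barcodes with few UMIs on both days, and with free RNA subtracted it was at -1.29, past the fold. In cDC2-like nuclei alone Irf4 was at -0.68 (-0.81 to -0.55), past it, but at -0.38 with TMM factors and -0.44 with free RNA subtracted. preDC-like nuclei, with more Irf4, made up 212 of 2628 nuclei of the pool at D0 and 1397 of 10120 at D5. Irf8 was lower, at -0.97 (-1.06 to -0.87), and Spib at -0.79 (-1.09 to -0.48), but both lay under the level in barcodes with few UMIs. After that profile was subtracted, Irf8 was left at 56.9 CPM at D0 and 0 at D5 in cDC2-like nuclei, and the Spib ratio of the pool was 0.03. Id2 was higher by 0.16 (0.10 to 0.21), and Tcf4 differed by 0.06 (0.01 to 0.11). Runx2 was at -0.21 (-0.32 to -0.10) and turned to 0.08 with TMM factors.

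In pDC-like nuclei, Tcf4, Irf8, Runx2 and Zeb2 were the factors with the highest levels. Tcf4, Runx2 and Zeb2 differed by -0.03 to -0.04 and Irf8 by -0.12 (-0.17 to -0.07), and each lay above 0 with TMM factors. Spib was the exception among the pDC factors, at 215 and 133 CPM and -0.70 (-0.86 to -0.54). Its level in barcodes with few UMIs was 92.4 and 21.5 CPM, and the ratio was inside the fold with TMM factors, at -0.54, and with that profile subtracted, at -0.34. Id2 stood at 213 and 307 CPM, 0.53 (0.40 to 0.66), below the level in barcodes with few UMIs, and its ratio after the subtraction was -1.98. In Ccr7+ DC-like nuclei Irf8 was lower, at -1.23 (-1.41 to -1.06), Batf3 at -0.93 (-1.19 to -0.67) and Klf4 at -0.72 (-1.01 to -0.43). Zbtb46 stood at -0.09 in them and Tcf4 at 0.32 (0.11 to 0.53). With TMM factors Irf8 and Batf3 stayed past the fold, at -1.09 and -0.79, but Klf4, at -0.58, did not. Clusters with markers of both Ccr7+ DCs and cDC1 were left unnamed and so lie outside this class. A first such cluster held 148 nuclei at D0 and 94 at D5, another 19 and 224. Their part in these ratios was not tested.

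**Figure D4:**
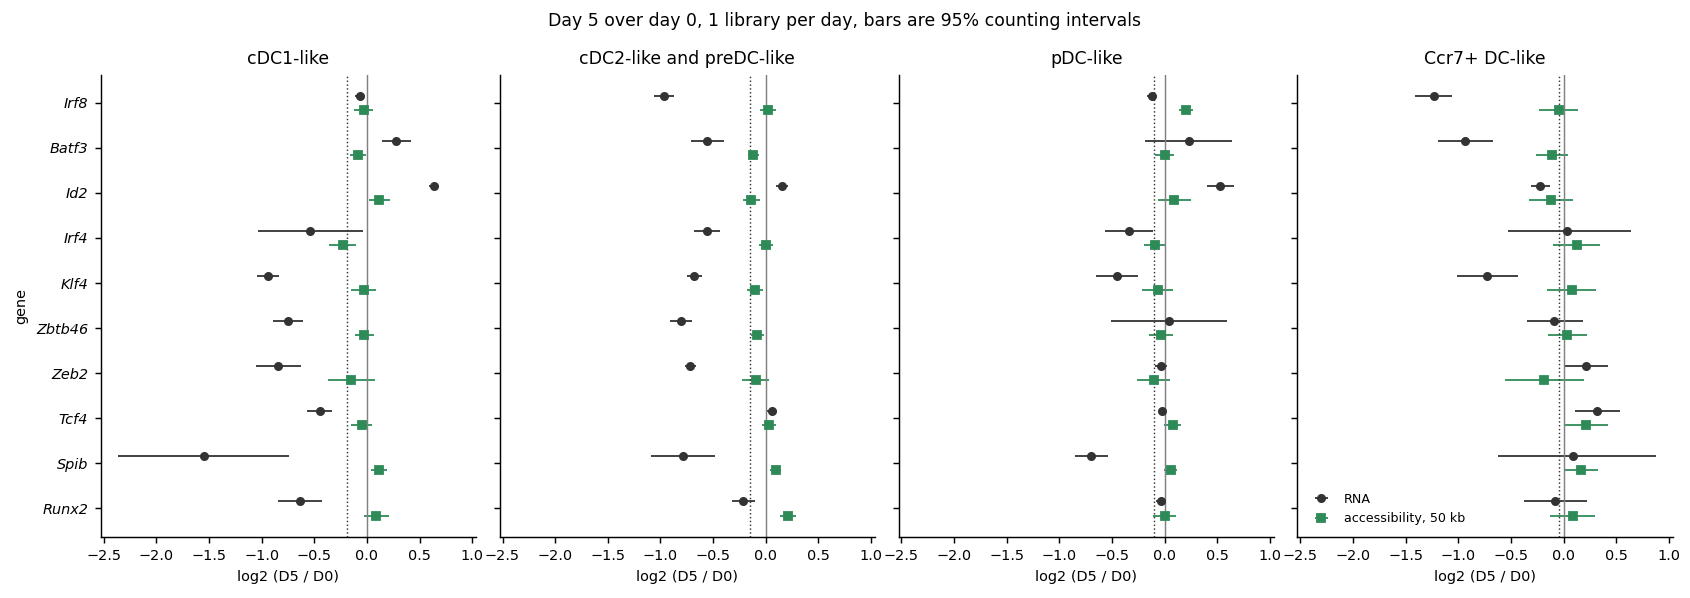
Log2 ratio of D5 over D0 for the 10 genes in cDC1-like nuclei, the cDC2 pool, pDC-like and Ccr7+ DC-like nuclei; black circles are RNA, green squares accessibility within 50 kb, bars 95% counting intervals, and the dotted line the median RNA ratio of all genes. RNA ratios run from -1.55 (Spib, cDC1-like) to 0.64 (Id2, cDC1-like), while accessibility stays within 0.23 of 0.

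Accessibility within 50 kb differed less than RNA. No gene was past 1.5-fold in any of the 4 classes, and the medians of the 10 genes were -0.03, -0.04, 0.00 and 0.06 in cDC1-like nuclei, the cDC2 pool, pDC-like and Ccr7+ DC-like nuclei, near the -0.02, -0.06, -0.03 and 0.06 of all shared peaks. Irf4 in cDC1-like nuclei stood at -0.23 (-0.36 to -0.10), Runx2 in the cDC2 pool at 0.21 (0.13 to 0.28) and Irf8 in pDC-like nuclei at 0.20 (0.13 to 0.26). The RNA of Runx2 and Irf8 in these classes did not go the same way under CPM scaling. TMM factors raised the chromatin ratios by 0.08 to 0.13.

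Peak by peak, some member peaks were past the fold, though single peaks hold fewer fragments than whole windows and so have wider counting error. Their shares lay above or below those of all peaks, depending on class and direction. In cDC1-like nuclei 2 of 126 peaks with at least 50 fragments were higher (1.59%) and 16 lower (12.7%), against 3.3% and 6.77% of all 62461 peaks so tested. In the cDC2 pool 8 of 204 were higher (3.92%) and 14 lower (6.86%), against 4.6% and 10.6% of 87826. In pDC-like nuclei 5 of 142 were higher (3.52%) and 1 lower (0.704%), against 1.68% and 6.66% of 62234. In Ccr7+ DC-like nuclei 2 of 64 were higher (3.13%) and 6 lower (9.38%), against 8.17% and 4.5% of 22900. With TMM factors the share of past-fold peaks over the whole genome that were higher was 53.3% in place of 32.8% in cDC1-like nuclei, 50.3% in place of 30.2% in the cDC2 pool, 36.0% in place of 20.2% in pDC-like nuclei and 85.3% in place of 64.5% in Ccr7+ DC-like nuclei.

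The lower peaks of cDC1-like nuclei included 5 near Irf4, at -44.0, -34.4, -16.2, -1.84 and +17.8 kb, with log2 ratios between -1.06 and -0.71, and 1 Irf4 peak, at +12.1 kb, was past the fold upward at 0.62 (-0.18 to 1.47). In the cDC2 pool, 4 Irf4 peaks and 6 peaks of the Zbtb46 window were lower, the one at the start of Lime1 among them, whereas the 8 higher peaks were 6 of Runx2 and 2 of Tcf4. The +32.4 kb peak of Irf8, which marked cDC1-like nuclei, was higher in pDC-like nuclei at 0.59 (0.16 to 1.02) and lower in Ccr7+ DC-like nuclei at -0.83 (-1.63 to -0.02). These peaks were singled out after their values were seen.

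The cDC2-like class was made of 4 clusters that held different parts of it on the 2 days, so the ratios were read within each. Cluster 2, led by Tnfsf9, Tnip3 and Mgl2, had 1043 nuclei at D0 and 3197 at D5; cluster 3, led by Hpgd, Sirpb1a and Abca9, 659 and 2190; cluster 7, led by Dab2 and Il1r2, 324 and 2901; and cluster 16, led by Adgrl3 and Frmd5, 390 and 435. Cluster 16 raised 4 of the 8 cDC2 markers but not Cd209a, Clec10a or Mgl2, and held 27.9 and 23.2 CPM of Mgl2 against 97.3 to 438 in the other clusters. Irf4 stood at 141 and 96.2 CPM in cluster 2 and 139 and 55.8 in cluster 3, but at 77.2 and 74.4 in cluster 7 and 123 on both days in cluster 16. Its lower level in the class was thus found in clusters 2 and 3.

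Klf4 and Zbtb46 were lower at D5 in all 4 clusters, Klf4 from 255 to 179, 593 to 270, 468 to 297 and 448 to 358 CPM and Zbtb46 from 207 to 132, 183 to 126, 93.7 to 62.7 and 228 to 142 CPM in clusters 2, 3, 7 and 16. Zeb2 was lower in clusters 2 (953, 527), 3 (683, 437) and 7 (569, 297) and level in cluster 16 (540, 541). Id2 was higher in all 4, most in cluster 7, from 491 to 645 CPM. Cluster 7, with 324 and 2901 nuclei, had the least Zbtb46 on both days.

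preDC-like nuclei were set beside the Clec10a+ state of the cDC2-like nuclei, a subcluster with 679 nuclei at D0 and 2240 at D5. It raised 3 of the 5 listed markers of mature cDC2 (Clec10a, Cd209a and Clec4a4, not Mgl2) and was led by Adgrl3, Hspa1a and Hspa1b. A subcluster with 1026 and 3033 nuclei raised 4 of the 5, Clec10a and Mgl2 among them, but was left unnamed. Its 10 leading genes, with Mir155hg, Tnfsf9 and Ccl22 first, held Ccl22 of the Ccr7+ list and 0 of the Clec10a+ list. The Clec10a+ state thus leaves out these nuclei. At D5, 6 of the 10 genes were past 1.5-fold higher in preDC-like nuclei and 2 lower, where 14.0% of 9720 genes were higher and 11.1% lower; at D0 the numbers were 4 and 2, where 21.9% of 5478 genes were higher and 15.1% lower. Tcf4 and Runx2 differed most. Tcf4 stood at 3029 against 322 CPM at D5, a log2 ratio of 3.23 (3.16 to 3.30; 4.00 at D0), and Runx2 at 453 against 92.8 CPM, 2.29 (2.15 to 2.43; 3.29 at D0). Spib, the third pDC factor, was at 0.75 (0.26 to 1.23) at D5 and 0.47 (-0.59 to 1.44) at D0. Tcf4 was among the 10 leading genes of the preDC-like cluster although it was left out of the clustering, and the pDC marker list summed to 1964 and 1410 CPM in preDC-like against 529 and 439 in cDC2-like nuclei.

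Of the cDC2 factors, Irf4 stood at 161 against 63.9 CPM at D5, 1.34 (1.15 to 1.52; 0.48 at D0), and Zeb2 at 929 against 444 CPM, 1.06 (0.99 to 1.14; 1.0 at D0). Klf4 differed by 0.04 at D0 and 0.31 at D5. Irf8 was higher by 2.35 at D0 and 1.54 (1.40 to 1.69) at D5, when its 281 CPM lay under the 358 CPM of barcodes with few UMIs. Id2 was lower in preDC-like nuclei, at -1.73 and -1.64 (-1.74 to -1.55 at D5), and Batf3 at -2.12 and -1.27. preDC-like nuclei thus combined the low Id2 and Batf3 of pDC-like nuclei with Irf4, Klf4 and Zbtb46 above them: against pDC-like nuclei these 3 were higher by 1.1, 2.27 and 3.40 at D0 and 1.14, 1.91 and 2.67 at D5. Spib was lower than in pDC-like nuclei, at -2.66 and -2.73.

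Their chromatin followed part of this pattern. Within 50 kb, preDC-like over Clec10a+ ratios at D0 and D5 were 0.53 and 0.48 for Tcf4, 0.60 and 0.33 for Irf8 and -0.94 and -0.78 for Id2, each in the direction of its RNA. For Runx2 and Irf4, higher in RNA on both days, the ratios were -0.10 and -0.19 (-0.31 to -0.07 at D5) and -0.06 on both days. For Klf4 they were -0.55 and -0.43, where its RNA did not differ beyond the interval at D0 and was higher by 0.31 at D5. The median of the 10 genes was -0.08 at D0 and -0.12 at D5, where those of all shared peaks were -0.20 and -0.04. Between the days, 6 of the 10 genes were past the fold lower at D5 in preDC-like nuclei and 0 higher, where 17.7% of 7734 genes were lower and 11% higher, and the median of the 10 genes was -0.67 against -0.13 for all genes. Irf8 stood at 973 and 281 CPM, -1.79 (-1.96 to -1.62), Runx2 at 981 and 453, -1.12 (-1.28 to -0.95), and Tcf4 at 4785 and 3029, -0.66 (-0.73 to -0.59). Klf4 stood at -0.82 (-1.02 to -0.61), Zbtb46 at -0.69 (-1.09 to -0.27) and Spib, with 13 UMIs at D0, at -0.76 (-1.62 to 0.22). Only Irf8 and Runx2 of the 6 stayed past the fold, at -1.52 and -0.85 with TMM factors and -2.13 and -0.78 with free RNA subtracted, alternatives added after the data were seen. Tcf4 was then at -0.39 and -0.28. With TMM factors 2 genes were past the fold higher, Batf3 at 0.61 and Id2 at 0.60, both from levels under that of barcodes with few UMIs. The shares of all genes past the fold under these alternatives are not given for preDC-like nuclei. Irf8 accessibility differed by -0.26 (-0.44 to -0.06). The pDC list was lower in the same nuclei, at 1964 and 1410 CPM, with Siglech at 292 and 167, and so was the B cell list, at 339 and 171 CPM; their part in these differences was not tested. Only 212 nuclei carry the D0 values.

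**Figure D5:**
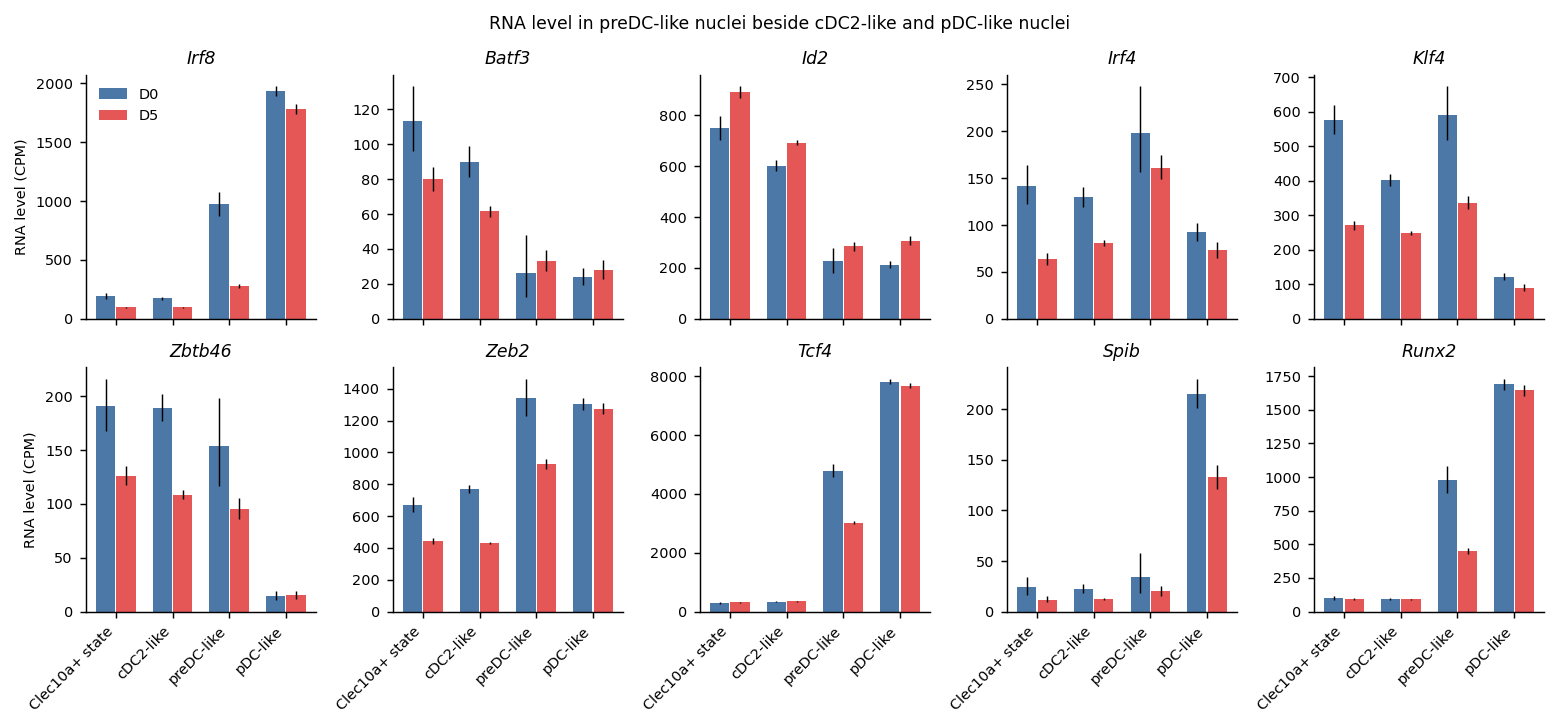
RNA of the 10 genes in the Clec10a+ state, cDC2-like, preDC-like and pDC-like nuclei at D0 and D5; bars are CPM of the class and start at 0, with 95% Poisson intervals. Tcf4, Runx2 and Irf8 in preDC-like nuclei lie between the Clec10a+ state and pDC-like nuclei on both days, and Irf4 is highest in preDC-like nuclei (198 and 161 CPM).

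Detection of 2 factors in 1 nucleus, again at 1000 UMIs, differed between classes as their levels did. Tcf4 and Runx2 were found together in 71.6% and 73.7% of pDC-like, 50.5% and 28.3% of preDC-like and 1.16% and 1.66% of NK cell-like nuclei at D0 and D5. Irf4 and Irf8 were found together in 6.60% and 2.65% of preDC-like and 6.29% and 5.39% of pDC-like nuclei, against 0.772% and 0.545% of cDC1-like and 1.57% and 0.642% of cDC2-like nuclei. Among preDC-like nuclei with Irf4, 42.4% and 20.3% also had Irf8, and among the rest 53.6% and 22.3%. Tcf4 and its inhibitor Id2 were found together in 19.0% and 25.2% of pDC-like nuclei, where the Id2 level lay below that of barcodes with few UMIs.

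Other regulators of DC fate, 33 genes in 5 lists, were set beside the members. In cDC1-like nuclei 1 of 31 with enough UMIs was past the fold higher at D5 and 6 lower, in the cDC2 pool 0 and 5 of 32, in pDC-like nuclei 2 and 2 of 31, and in Ccr7+ DC-like nuclei 2 and 3 of 27. Of all genes, 18.0%, 17.0%, 8.29% and 12.7% were lower in these classes, so that the counts lay near the background. By list, 3 of 7 cDC2 partners and 2 of 6 pDC partners were lower in cDC1-like nuclei, and 0 of 6 cDC1 partners. The median of the 33 was -0.29, -0.27, -0.16 and -0.18 in the 4 classes, between the members' medians and those of all genes in cDC1-like nuclei and the cDC2 pool. Among the cDC1 partners, Batf, which can stand in for Batf3, stood at 16.1 and 26.2 CPM in cDC1-like nuclei, 0.70, and at 13.4 and 21.6 CPM in Ccr7+ DC-like nuclei, 0.69 (-0.33 to 1.89).

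Ets1, an ETS factor best known in lymphocytes, was lower at D5 in cDC1-like nuclei (15.3 and 4.57 CPM, -1.74), the cDC2 pool (21.9 and 6.10, -1.84) and Ccr7+ DC-like nuclei (37.1 and 14.8, -1.33), beside the lower NK cell list. Irf1, induced by interferon, was lower in cDC1-like (105 and 45.9 CPM, -1.20) and Ccr7+ DC-like nuclei (404 and 177, -1.19). Nr4a3, needed by migratory DCs, stood at 395 and 210 CPM in cDC1-like nuclei, -0.91, and Rbpj, which carries Notch signals that cDC2 depend on, at 624 and 297 CPM in the cDC2 pool, -1.07. Ikzf3 in the cDC2 pool was at 7.62 and 2.30 CPM, -1.73. In pDC-like nuclei, Spi1, which encodes PU.1, stood at 87.2 and 148 CPM, 0.76, Cebpa at 17.4 and 9.94 CPM, -0.81, and Tbx21 at 8.32 and 4.84 CPM, -0.78 (-1.68 to 0.08). In preDC-like nuclei Irf7 stood at 112 and 43.6 CPM, -1.36, Irf1 at 243 and 94.4, -1.36, and Mycl at 41.7 and 16.6, -1.33.

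The genes whose RNA over the 16 class and day points was most like that of each factor were sought among 9268 genes outside the marker lists, by Pearson's r of log2(CPM + 10). For Irf8 they were Nek6 (0.95) and P2ry14 (0.92), for Batf3 Adam8 (0.92) and Tspan33 (0.91), for Id2 Ube2n and Tbca (0.93 each), and for Irf4 Ddr1 (0.91) and Hrh1 (0.90). For Klf4 they were Il10ra and Zfand5 (0.93 each), for Zbtb46 Jak2 (0.94) and Ccdc167 (0.89), and for Zeb2 Cybb (0.97) and Zeb2os (0.95), an antisense neighbour. How reads were divided between Zeb2 and Zeb2os was not examined. Tcf4 was followed by Zbed4 (0.98) and Dennd5b (0.97), Spib by Lrp8 and Aff4 (0.95 each), and Runx2 by Itsn1 and Kdm2a (0.95 each). The points share libraries and depth, and the values are given as a description.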

How the data were processed

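RNA and open chromatin of the same nuclei were measured in 4 samples, the 2 layers of 1 library per day. The authors deposited raw counts (UMIs per gene, cut sites per peak), made with Cell Ranger ARC 2.0.2 on mm10 per the submitters' processing notes, without normalization and with peaks called per library. RNA counts totalled 44496348 (D0, 16260 barcodes) and 94374499 (D5, 27873 barcodes), and peak counts 230603066 and 246268185. Barcodes were kept from 1000 UMIs upwards if mitochondrial UMIs did not exceed 10%, and doublet scores of 0.2 or higher were removed (23.1% and 25.5%). Both days were clustered together (scanpy 1.11.5, leidenalg 0.10.2, Leiden resolution 1.0), and clusters with at least 3 markers raised 2-fold were named by thresholds chosen after the clusters had been seen; names taken from accessibility were the same for 87.9% of the 23408 nuclei named in both layers and 66.7% of all kept; macrophage-like and nonclassical monocyte-like nuclei were mostly named cDC2-like there. Peaks of the libraries overlapping by 1 base were joined, and peak counts were divided by 2 to give fragments. UMIs and fragments were summed per class and day and given as CPM with exact Poisson intervals, and log2 ratios with exact conditional binomial intervals (95%, scipy 1.17.1), which cover counting error only. TMM factors came from edgeR 4.0.16. Scripts were tested on simulated data. The 10 genes and all lists were chosen with earlier results of these data known. Named were all 10 genes, for each the 2 genes most like it and its most selective and most open peak, and per class the 3 largest differences among 33 other regulators.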

Additional observations from a re-analysis of the deposited data

Results flagged for a closer look

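Only cDC1-like, pDC-like and Ccr7+ DC-like nuclei and the cDC2 pool were searched here. Among them the D5 over D0 ratio of RNA pointed in opposite directions for 3 genes, each by more than its counting interval and past 1.5-fold in at least 1 class. Outside them, Zbtb46 was at 0.77 in NK cell-like against -0.75 in cDC1-like nuclei. Runx2 was at 0.42 in macrophage-like against -0.63 in cDC1-like nuclei. The differences between the classes were not tested, since each day is 1 library. Batf3 was at 0.28 in cDC1-like nuclei, -0.56 in the cDC2 pool and -0.93 in Ccr7+ DC-like nuclei on the log2 scale. Id2 was at 0.64 in cDC1-like nuclei, 0.16 in the cDC2 pool and 0.53 in pDC-like nuclei, and at -0.22 in Ccr7+ DC-like nuclei. Zeb2 was at 0.21 in Ccr7+ DC-like nuclei, -0.84 in cDC1-like nuclei and -0.72 in the cDC2 pool. With TMM factors the directions of Batf3 were the same, at 0.59, -0.27 and -0.79. The directions of Id2 and Zeb2 were not the same under every alternative. Without removal of doublets Zeb2 was at 0.0754 in cDC1-like and -0.12 in Ccr7+ DC-like nuclei and Id2 at 0.15 in Ccr7+ DC-like nuclei, and with free RNA subtracted Id2 was at -1.98 in pDC-like and 0.0156 in Ccr7+ DC-like nuclei. Tcf4 also differed in direction, at -0.45 (-0.57 to -0.33) in cDC1-like and 0.32 (0.11 to 0.53) in Ccr7+ DC-like nuclei, but was past 1.5-fold in neither, and without removal of doublets it was at 0.0179 and -0.21.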

How the results depend on the processing

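No paired analysis was possible because each day is 1 library, and for the same reason no replicate could be left out. Of the alternative values that answer a comparison, 77 stayed within the counting interval, or within 1.5 times the count, and 14 moved beyond it; of the 699 for single genes 542 stayed within it, 155 moved and 2 that were past the fold changed direction. In all 103 of the 699 had the other sign, 31 of them for ratios whose interval leaves out 0. The median RNA ratio of the 10 genes was -0.33 in the cDC2 pool and 0.12 in pDC-like nuclei with TMM factors, and the chromatin median of the cDC2 pool 0.0755. Without removal of doublets it was -0.13 in cDC1-like, -0.30 in pDC-like and -0.37 in Ccr7+ DC-like nuclei, and Zeb2 in cDC1-like nuclei turned to 0.0754. With free RNA subtracted (17.7% and 37.6% of the profile of barcodes with few UMIs) it was 0.27 in Ccr7+ DC-like nuclei, and Spib in the cDC2 pool turned to 0.0271. In the cDC2 pool the median was then -0.29 over the 9 genes left above 0 on both days. It was -0.34 with Irf8, left at 0 at D5, ranked lowest. In pDC-like nuclei the median was 0.03 over 8 such genes, and -0.14 with Zbtb46, left at 0 at D5, ranked lowest. Classes named from accessibility gave -0.10 in pDC-like nuclei. The chromatin median was 0.13 in pDC-like nuclei with at least 2000 UMIs and 0.0338 in the cDC2 pool within 2 kb. Genes with the same highest class in both layers at D5 numbered 6 within 2 kb and 7 within 10 kb, in place of 3. The causes were not tested. With a minimum of 1 UMI on each day the median of all genes was -0.34 in cDC1-like nuclei, -0.29 in the cDC2 pool, -0.12 in pDC-like and -0.14 in Ccr7+ DC-like nuclei. Thinned to 2000 UMIs, 16 of 20 pairs of gene and day kept the highest class. At a subclustering resolution of 1.0 no cluster was named as the Clec10a+ state, so the preDC-like comparison has no value there. Depth limits genes with few UMIs outside their top classes, such as Spib, Irf4, Batf3 and Zbtb46.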
